A study of Mus musculus with 48 samples.

Results

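The proximal part of one topological domain of the mouse Igκ light chain locus, chr6:68520001-68890000 (mm9), was described by its junctions to a break at Jκ1. All 612174 junctions that mapped to these 370 kb were taken, out of 7265223 junctions in the Vκ region (chr6:67500001-70660000) and 8250887 in all 48 libraries. They gathered at 14 of the 138 RAG break sites that were placed in the Vκ region. A break site was a position where junctions of the arrested WT signal end libraries piled up and where the reference reads CAC, the start of a recombination signal sequence (RSS). A position used in other libraries alone could not become a site, so the sites were picked for their use in arrested WT cells with the signal end bait. Of the 14 sites, 11 lay at an annotated Vκ segment and 3 did not. These 3 lay at positions 68544371, 68830171 and 68880262, and are called unannotated sites 1, 2 and 3 here.

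The libraries came from v-abl transformed pro-B cell lines (vAbl), a WT line and a Ku70-/- line, with 24 libraries each. Cells were either cycling or arrested in G1 with STI-571, an inhibitor of the Abl kinase, at 3 µM for 96 h. The arrested cells received with it DMSO, the DNA ligase inhibitor L67 at 5 µM, or the DNA ligase I inhibitor L82-G17 at 25 µM. Each combination was read from the coding end and from the signal end of Jκ1, with 3 libraries in each of the 16 groups. One line stood for each genotype, so the loss of Ku70 cannot be told apart from other differences between the lines. Nothing in the labels says that the 3 libraries of a group were separate cultures, so p-values measure the spread between these libraries, which may be technical. The paper states 3 biological repeats for its experiments, and its text does not describe L67 or L82-G17. The window held 6007 to 39984 junctions in the 36 arrested libraries, 1233 to 2004 in cycling WT and 167 to 645 in cycling Ku70-/- libraries.

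The labels number no libraries, and the numbers used here follow the order of deposit and pair nothing. In arrested DMSO Ku70-/- cells 1 library of each bait stood apart. These libraries, numbered 1, held 70 distinct window junctions with the coding end bait and 80 with the signal end bait. The other 2 libraries held 1089 and 976 with the coding end bait, and 1094 and 870 with the signal end bait. The study's supplementary lists do not name these libraries, and results that rest on them are given with and without them or library by library. Few distinct junctions under many reads means that single joints were counted many times there.

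In V(D)J recombination the RAG endonuclease pairs a Vκ RSS, which has a spacer of 12 bases, with a Jκ RSS, whose spacer is longer. It cuts at the border of the heptamer and the coding segment. Each cut leaves a hairpinned coding end, opened and trimmed before joining, and a blunt signal end. Non-homologous end joining (NHEJ), which begins with the Ku70/Ku80 ring, joins coding to coding and signal to signal ends. Without Ku, breaks are joined by alternative end joining, known for resected ends and short shared bases at the joint. A Vκ segment in the same direction as Jκ is joined with deletion of the DNA between them (DEL), and one in the opposite direction by inversion (INV). A hybrid joint, of a coding to a signal end, turns this round and deletes at an INV segment.

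The sites that carried the window are shown with the 20 bases on their coding side in lower case and the RSS heptamer and nonamer in capitals, with the spacer of 12 bases between them. Igkv1-88, Gm16637, Igkv19-93 and Igkv4-86 led the window with the coding end bait, and Igkv12-98 entered the leading 4 with the signal end bait. Igkv10-95 and Igkv10-94 are shown because they share their RSS with Gm16637, and Igkv4-91 for its heptamer. The Jκ1 RSS that all of them were joined to stands last.
Igkv12-98 (chr6:68521210-68521257, plus strand): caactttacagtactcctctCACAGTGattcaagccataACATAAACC
Gm16637 (chr6:68581929-68581976, minus strand): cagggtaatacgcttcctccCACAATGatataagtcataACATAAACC
Igkv10-95 (chr6:68630823-68630870, plus strand): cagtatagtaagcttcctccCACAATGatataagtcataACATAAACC
Igkv10-94 (chr6:68654474-68654521, minus strand): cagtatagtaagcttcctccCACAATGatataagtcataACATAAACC
Igkv19-93 (chr6:68686263-68686310, minus strand): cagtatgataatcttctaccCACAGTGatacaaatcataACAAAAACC
Igkv4-91 (chr6:68718521-68718568, minus strand): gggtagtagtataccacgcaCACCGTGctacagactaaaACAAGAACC
Igkv1-88 (chr6:68812231-68812278, minus strand): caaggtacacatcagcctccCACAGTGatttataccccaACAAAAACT
Igkv4-86 (chr6:68860377-68860424, minus strand): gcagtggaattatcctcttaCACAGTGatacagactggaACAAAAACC
Jκ1 RSS (chr6:70672517-70672555, read toward its nonamer): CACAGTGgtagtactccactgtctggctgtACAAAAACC

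The heptamer CACAGTG stood at 9 of the 14 sites, against 80.4% of all 138. CACAATG stood at 4, at Gm16637, Igkv10-95, Igkv10-94 and Igkv4-90, against 7.97% of all sites. Igkv4-91 alone had CACCGTG. Heptamers were read on the strand of each site, and 3 of the 14 were on the plus strand (DEL: Igkv12-98, unannotated site 1 and Igkv10-95) against 63 of 138 in all. Gm16637, Igkv10-95 and Igkv10-94 had all 28 RSS bases in common. Igkv10-95 and Igkv10-94 were also identical at 99 of 100 bases on the coding side and 98 of 100 on the signal side. A read could therefore be placed at the wrong one of this pair, and the split of their counts is uncertain. Gm16637 differed from them at 13 and 12 of 100 coding side bases. Of 12 annotated Vκ segments in the window, Igkv10-96 had no break site.

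In arrested WT cells treated with DMSO the window took 7.31% ± 0.18 (SD, n = 3) of the Vκ region's junctions with the coding end bait and 11.3% ± 0.54 with the signal end bait. Igkv1-88 took the largest part. Its share was 2.74%, 2.76% and 2.71% of the region's coding end junctions in the 3 libraries, rank 5 of 138 sites, and 37.4% of the window. From the signal end it took 4.63%, 4.46% and 3.77%, rank 2, and 38.0% of the window. The values of this one Vκ site lay far above those of every other site of the window in each library.

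Gm16637 came second from both baits. It took 1.42%, 1.39% and 1.46% of coding end junctions and 1.91%, 1.97% and 2.38% of signal end junctions. Igkv19-93 followed with 1.08%, 0.929% and 0.890% from the coding end and 1.06%, 1.02% and 0.979% from the signal end. These 3 INV sites held their order by level in every arrested DMSO WT coding end library. Igkv12-98 was level with Igkv12-89 from the coding end, where its values of 0.464%, 0.380% and 0.414% met 0.443%, 0.501% and 0.441%. From the signal end Igkv12-98 stood above Igkv19-93, with 1.13%, 1.2% and 1.17%.

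The identical RSS did not come with equal use. From the coding end Igkv10-95 took 0.237% ± 0.012 (SD, n = 3) and Igkv10-94 took 0.136% ± 0.0035, against 1.43% ± 0.038 at Gm16637. The lowest levels were those of the Igkv4 sites 4-92 and 4-91, with 0.0156% ± 0.0034 and 0.00510% ± 0.0018. Their neighbour Igkv4-90 took 0.107% ± 0.026 and Igkv4-86, the most Jκ-proximal annotated segment here, 0.566% ± 0.0026. Igkv4-90 and Igkv4-86 carry the nonamer ACAAAAACC, found at 28.3% of all sites, whereas 4-92 and 4-91 carry other nonamers. Sites with more use carry other nonamers too, ACAAAAACT at the most used site of the window and ACATAAACC at Gm16637. The heptamer of 4-91 also differs, with CACCGTG. Whether the nonamer bears on use was not tested. Unannotated site 3 took 0.109% ± 0.040 from the coding end. Unannotated sites 1 and 2 took 0.0608% ± 0.016 and 0.0581% ± 0.0038, less than unannotated site 3 on average, but site 1 overlapped it in range.

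**Figure D1:**
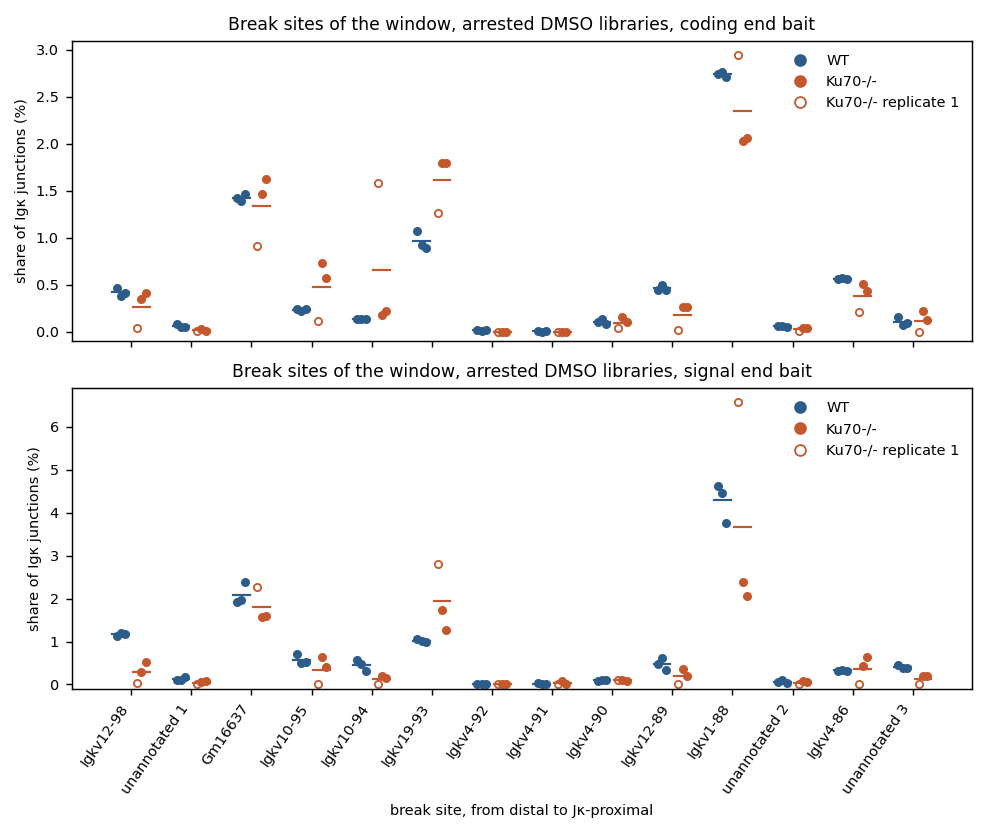
Share of the Vκ region's junctions (y axis, %) at each of the 14 break sites (x axis, from distal to Jκ-proximal) in the arrested DMSO libraries, upper panel coding end bait, lower panel signal end bait. Each point is 1 library, lines are means of 3, and open circles mark Ku70-/- library 1. Igkv1-88 is highest in each WT library, at 2.71% to 2.76% and 3.77% to 4.63%, and the open circles leave the other Ku70-/- points at most sites, above them at Igkv1-88 from both ends, at Igkv10-94 from the coding end and at Igkv19-93 and Gm16637 from the signal end, and far below them at Igkv10-95 and Igkv4-86 from the signal end.

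The 2 ends of Jκ1 did not see the sites alike in WT cells. With limma on log2 shares over 114 sites, 67 differed between signal and coding end (58.8%), and 8 of the 12 window sites that passed the filter on low counts did. Of the 14 window sites, Igkv4-92 and Igkv4-91 did not pass it. The signal end libraries were also those on which the sites were placed, which favoured higher signal end values, and these are given as a description. Unannotated site 3 had 0.109% from the coding and 0.410% from the signal end (log2 1.96, SE 0.26), Igkv10-94 had 0.136% and 0.462% (log2 1.71) and Igkv12-98 had 0.419% and 1.17% (log2 1.48). Igkv10-95, unannotated site 1, Igkv1-88 and Gm16637 had log2 1.27, 1.06, 0.64 and 0.54. Igkv4-86 was the one called site that went the other way, from 0.566% to 0.327% (log2 -0.79, SE 0.079, adjusted p = 0.00046 by limma). All 3 DEL sites were among the 7 with higher signal end values. Over all sites 29 of the 67 were higher and 38 lower from the signal end. The DEL share of the Vκ sites outside the window was also higher there, at 50.5% against 42.4% in arrested WT libraries. The median log2 difference was 0.59 over the 12 window sites and -0.15 over all sites tested.

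Arrest changed which sites were used. Cycling WT cells joined Igkv1-88 at 0.401%, 0.487% and 0.979% of the region's coding end junctions, and every arrested DMSO library was above 2.70%. With limma 36 of 110 sites differed between arrested and cycling WT cells with the coding end bait (32.7%), and 5 of 12 tested window sites did. Of these 12, 5 had under 50 junctions on average in the cycling libraries and passed the filter on low counts through the arrested ones alone, Igkv12-89 among them. Igkv1-88 rose from a mean of 0.622% to 2.74% (log2 2.24 between the means of log shares, SE 0.36, adjusted p = 0.0098). Igkv12-89, whose pass of the filter already favoured a rise, had 0.152% and 0.462% on average (log2 1.82). It is counted among the 5, but its value is a description. Igkv19-93 fell from 1.84% to 0.965%, Igkv4-86 from 1.25% to 0.566% and Igkv10-95 from 0.571% to 0.237% (log2 -0.94, -1.10 and -1.22, adjusted p = 0.010, 0.029 and 0.030 by limma). The groups did not overlap at any of these 5 sites, which was also a condition for giving their values. Leaving out any 1 arrested DMSO library left none of the 5 past the threshold and 5 of 110 sites in all (4.55%), at almost the same log2 values, and Igkv1-88 then had adjusted p-values of 0.062 to 0.070. When each distinct junction was counted once, Igkv1-88 had log2 0.55 with adjusted p = 0.085.

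With the signal end bait 56 of 110 sites differed (50.9%), among them 6 of the 12 window sites tested. The break sites were placed on libraries of the arrested group, and 4 of the 12 passed the filter through it alone, Igkv12-98, Igkv4-90 and unannotated sites 1 and 2. A higher value after arrest was built into their choice, and their values are a description. Igkv12-98 held 0, 5 and 5 signal end junctions in the cycling WT libraries and 3830 to 3938 in the arrested ones, or 0.0166% and 1.17% on average. Unannotated site 1 had no signal end junction in any cycling WT library, where 3 counts would be 0.0141% to 0.0155%, and 0.113%, 0.101% and 0.169% after arrest. Unannotated site 2 had none either, and 0.0644% after arrest. Igkv1-88 had 0.118%, 0.289% and 1.29% in the cycling libraries and 3.77% to 4.63% after arrest (log2 3.57, SE 0.87). Its adjusted p of 0.018 by limma became 0.058 to 0.067 once any 1 arrested DMSO library was left out. Placement on the arrested libraries favoured higher values there, at this site as at the others. Igkv10-95 rose from 0.250% to 0.577% (log2 1.17), whereas its value with the coding end bait fell. Igkv4-86 fell from 1.16%, 1.05% and 1.15% to 0.315%, 0.346% and 0.319% (log2 -1.78, adjusted p = 0.0027). The cycling libraries rested on few joints. Igkv1-88 had 2 distinct signal end junctions in each of them, and Igkv12-98 had 0 to 2. Counted as distinct junctions, Igkv12-98 and Igkv1-88 had log2 0.53 and 0.38 (adjusted p = 0.31 and 0.15 by limma), and unannotated site 1 turned to log2 -0.079.

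The 3 leading INV sites of WT cells also led the window in Ku70-/- libraries 2 and 3, from both ends. No window site passed the limma test against arrested WT cells with all 3 libraries, out of 112 sites tested with the coding end bait (8 called, 7.14%) and 113 with the signal end bait (13 called, 11.5%). At unadjusted p under 0.05 there were 2 and 1 window sites, among 20 (17.9%) and 27 (23.9%) of all sites. The count depended on how junctions were counted and fitted. With distinct junctions 6 and 6 window sites were called, among 43 (38.4%) and 40 (35.4%) of all, and with 1 fit over all 24 libraries of a bait 1 and 2, among 16 (14.3%) and 20 (17.7%). Without Ku70-/- library 1 the test called 46 of 113 sites (40.7%) and 60 of 112 (53.6%), with 6 and 5 window sites among them. Igkv1-88 was then lower from both ends. It took 2.03% and 2.06% of coding end junctions in the other 2 Ku70-/- libraries (log2 -0.42, SE 0.064, adjusted p = 0.0080 by limma) and 2.39% and 2.07% of signal end junctions (log2 -0.94, adjusted p = 0.010). Library 1 alone had 2.95% and 6.57%. From the signal end it also stood above the others at Igkv19-93, with 2.81% against 1.74% and 1.28%, and at Gm16637, with 2.26% against 1.58% and 1.6%. It was near 0 at Igkv10-95, with 0.0014%, and at Igkv4-86, with 0.018%. From the coding end it was lower at Gm16637, with 0.907% against 1.47% and 1.63%, and at Igkv19-93, with 1.26%. Against WT cells Igkv19-93 was higher with the coding end bait, at 1.79% in libraries 2 and 3 (log2 0.90, adjusted p = 0.0037).

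Igkv10-95 rose to 0.734% and 0.569% in the same coding end comparison (log2 1.45, SE 0.14, adjusted p = 0.0024 by limma) and Igkv10-94 to 0.179% and 0.222% (log2 0.55). Igkv12-89 fell by 0.81 on the log2 scale. Unannotated site 2 had log2 -0.43, but with all 3 libraries it passed the filter on low counts through WT cells alone, so a lower value was built in. The sites were placed on WT signal end libraries, which also favoured lower Ku70-/- values from that end. With the signal end bait Igkv12-98 fell to 0.287% and 0.522% (log2 -1.59, adjusted p = 0.0089), Igkv10-94 by 1.32, unannotated site 3 by 1.07 and unannotated site 1 by 0.95 on the log2 scale. Library 1 put 1.58% of its coding end junctions at Igkv10-94, where its 1520 junctions came from 7 distinct ones. Igkv1-88 was the leading site of the window from both ends in that library too. Igkv4-92 and Igkv4-91 held 0 to 1 coding end junction in each Ku70-/- DMSO library.

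Within Ku70-/- cells, arrest and bait gave no window call in comparisons of 2 groups. Of 93 sites tested for arrest with the coding end bait 1 was called (1.08%) and of 94 with the signal end bait 9 were (9.57%), none of them among the 10 window sites tested. Of these 10, 9 passed the filter through the arrested libraries alone with either bait. At unadjusted p under 0.05, limma had 3 and 1 of these window sites, among 18 (19.4%) and 15 (16.0%) of all sites. With 1 fit over all 24 libraries of a bait, limma called 6 and 2 window sites for arrest, among 42 (45.2%) and 30 (31.9%) of all. Distinct junctions gave 1 window site with the coding end bait, among 6 (6.45%) of all, and none with the signal end bait. Without library 1, limma called 13 of 94 sites for arrest with the signal end bait (13.8%), and the 1 window site was unannotated site 3, one of the 9, whose higher value after arrest was built in. The bait comparison called none of 99 sites (0.00%), and none of 11 window sites had an unadjusted p under 0.05, against 1 of all sites (1.01%). Cycling Ku70-/- libraries placed 50.7% to 72.9% of their window junctions within 200 bp of a break site, against 96.1% to 100% in the arrested libraries of either genotype.

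Igkv1-88 was used less under L82-G17 in WT cells. Its coding end share fell to 1.56%, 1.5% and 1.6% (log2 -0.82, SE 0.060, adjusted p = 0.0013 by limma), where 41 of 115 sites changed (35.7%) and 3 of 12 window sites did. Gm16637 fell to 1.11%, 1.07% and 1.18% (log2 -0.35, adjusted p = 0.013). Igkv19-93 rose to 1.37%, 1.26% and 1.29% (log2 0.44, adjusted p = 0.015). Without DMSO library 3, 1 window site was called, among 21 of 113 sites (18.6%). With the signal end bait 11 of 113 sites changed (9.73%), and Igkv1-88 was the 1 window site, at 2.64%, 2.65% and 2.60% (log2 -0.70, SE 0.13, adjusted p = 0.027 by limma). Its adjusted p was 0.060 to 0.097 once any 1 library was left out. In distinct junctions no window site passed with either bait, against 3 of 115 sites (2.61%) and 1 of 113 (0.885%) in all, and Igkv1-88 had log2 values of -0.16 and -0.26. With 1 fit over all 24 libraries of a bait no site passed at all (0.00%), and Igkv1-88 had adjusted p-values of 0.996 and 0.986 by limma.

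L67 was used at another dose, and its values stand beside those of L82-G17 without a comparison. Igkv1-88 took 2.10%, 2.04% and 2.03% of WT coding end junctions under L67 (log2 -0.41, SE 0.041, adjusted p = 0.0081 by limma), in a comparison with 6 of 115 sites called (5.22%) and 1 of 12 window sites. Without DMSO library 2 its adjusted p was 0.051, and in distinct junctions its log2 value was -0.059 (adjusted p = 0.86 by limma). With 1 fit over all 24 libraries of the coding end bait none of 115 sites passed (0.00%). With the signal end bait L67 changed none of 114 sites by limma (0.00%), with 2 of 12 window sites and 14 of all sites (12.3%) at unadjusted p under 0.05.

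In Ku70-/- cells limma called no site under either inhibitor and bait (0.00%), with 1 window site at unadjusted p under 0.05, under L82-G17 with the coding end bait, among 7 of 96 sites (7.29%). There Igkv1-88 took 1.34%, 1.18% and 1.24% under L82-G17 and 1.86%, 1.77% and 1.57% under L67. Against the other 2 DMSO libraries 9 of 97 sites were called under L82-G17 (9.28%), and Igkv1-88 fell as the 1 window site (log2 -0.71, SE 0.12, adjusted p = 0.018). Igkv19-93 took 2.36%, 2.18% and 2.66% of Ku70-/- coding end junctions under L82-G17, above each DMSO and L67 library, by values that no test called. Whether an inhibitor acted differently in the 2 genotypes was tested on 6 measures of the whole window, in 24 exact permutation tests, and none passed at adjusted p (lowest 0.24). A single one of them could not have passed, since the smallest p each can give is 0.005, or 0.12 after adjustment over 24.

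**Figure D2:**
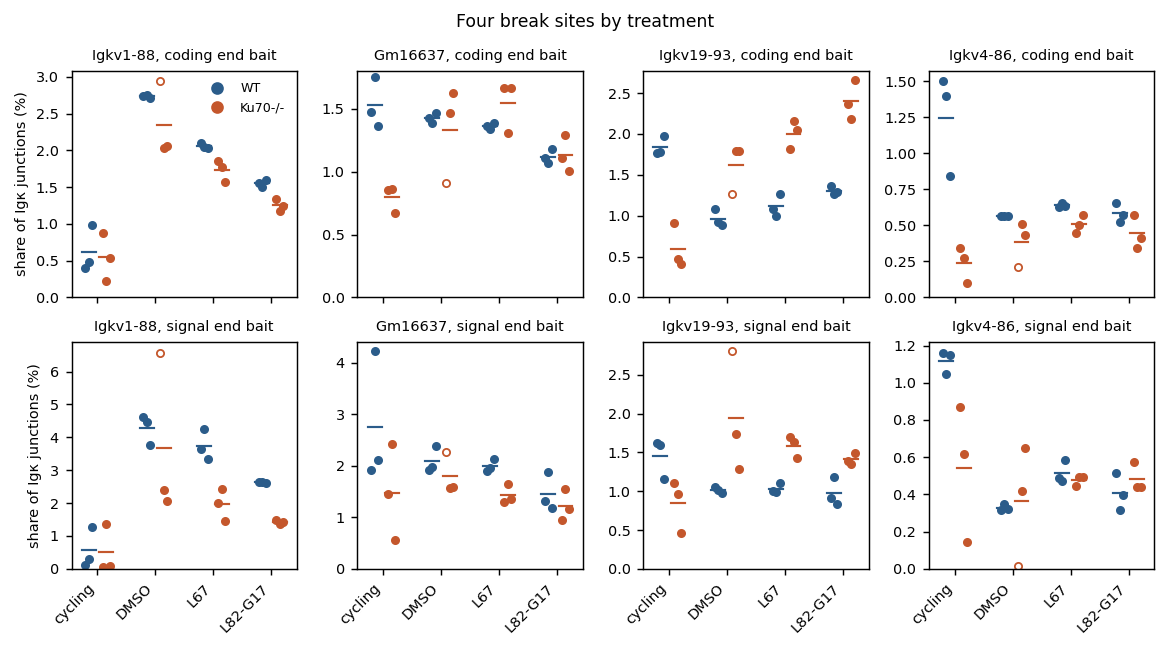
Share of the Vκ region's junctions (y axis, %) at Igkv1-88, Gm16637, Igkv19-93 and Igkv4-86 by treatment (x axis), upper row coding end bait, lower row signal end bait. Points are libraries, lines are means of 3, open circles are Ku70-/- library 1, and each panel has its own scale. Igkv1-88 is low in cycling WT cells, highest under DMSO and lower under L82-G17, and Igkv4-86 runs from 0.846% to 1.5% in cycling WT coding end libraries against 0.563% to 0.568% under DMSO.

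Few of the window's junctions lay at DEL sites, since 11 of its 14 sites were INV, among them all of the 3 most used from the coding end and the 2 most used from the signal end. The share follows from which sites the window holds and is given with no test. Over the 9 arrested WT coding end libraries 11.8% ± 1.8 (SD) of its junctions lay at DEL sites, against 42.4% ± 1.4 at the other Vκ sites. The signal end bait gave 17.6% ± 1.6 against 50.5% ± 2.3. Ku70-/- cells gave 12.7% ± 4.1 against 40.5% ± 1.6 and 15.4% ± 6.7 against 35.6% ± 1.2. Without library 1 these were 14.0% ± 1.2 against 40.5% ± 1.6 and 17.3% ± 3.8 against 35.6% ± 1.3 (SD, n = 8). With so many hybrids in Ku70-/- cells, described next, a junction at a DEL site there need not be a deletion. In WT cells the DEL share under DMSO was 9.81% ± 0.73 with the coding end bait and 16.9% ± 0.94 with the signal end bait (SD, n = 3 each, with no overlap).

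Ku70-/- cells often joined unlike ends. A hybrid joint ties a coding end to a signal end. In arrested DMSO WT cells hybrids made up 0.238% ± 0.052 (SD, n = 3) of the window's coding end bait junctions and 2.21% ± 0.14 of its signal end bait junctions. In Ku70-/- cells they made up 47.6%, 32.6% and 35.1%, and 27.9%, 46.7% and 52.8%. The genotypes did not overlap with either bait (exact permutation p = 0.1, the smallest that 3 against 3 can give). From the signal end the gap was much smaller when each distinct junction was counted once. There WT libraries then held 23.1%, 21.3% and 20.5% hybrids and Ku70-/- libraries 32.5%, 46.6% and 48.3%. From the coding end these were 1.09% to 1.51% and 39.3% to 43.3%, again without overlap. Counting by distinct junctions merges the repeated exact joints of WT cells. By junctions again, library 1 was the highest of the 3 with the coding end bait and the lowest with the signal end bait. Under L82-G17 the Ku70-/- coding end libraries held 20.7% ± 1.4 hybrids, below each DMSO library, and the signal end libraries 33.2% ± 3.1, above library 1 and below the other 2. Under L67 the values were 36.1% ± 1.5 and 52.0% ± 2.2.

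Hybrids were not spread evenly over orientation. With the signal end bait, 28% to 58.6% of the junctions at INV sites of arrested Ku70-/- cells were hybrid, and 1.92% to 32.2% of those at DEL sites. The DEL sites were lower in 9 of 9 libraries (mean difference -24.5 points, SD 6.4, exact two-sided sign-flip p = 0.0039, the smallest that 9 libraries can give), and in 9 of 9 when each distinct junction was counted once. The other Vκ sites of the same libraries had the same order, with a mean difference of -33.7 points, so it was not particular to these 14 sites. The sites overlapped across orientation. Igkv4-92 held 0 to 43 junctions per library, none in some of the 9, so its median hybrid share of 0% rests on few. Over the 11 INV sites the medians ran from this 0% to 63.2% at Igkv19-93, whose single libraries ran from 1.13% to 72.4%. Igkv1-88 had 45.3%, Gm16637 38.1%, Igkv10-94 30.8% and unannotated site 2 21.2%. Among the DEL sites Igkv10-95 had 33.9%, Igkv12-98 13.8% and unannotated site 1 a median of 0%, with values up to 25.5%. With the coding end bait the DEL sites of the window were lower in 5 of 9 libraries (mean difference -3.41 points, p = 0.46 by exact sign-flip test), and in 7 of 9 with distinct junctions (-6.41 points, exact p = 0.016). At the other Vκ sites DEL was lower with this bait in 9 of 9 by either counting, with mean differences of -13.0 and -11.1 points. The comparison by orientation was chosen after the values were seen.

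In arrested WT cells the order with the signal end bait was the other way round. DEL sites of the window held 2.48% to 7.08% hybrids and INV sites 1.21% to 2.87%. DEL was higher in 9 of 9 libraries (mean difference 2.78 points, exact sign-flip p = 0.0039) and in 7 of 9 with distinct junctions (6.12 points, exact p = 0.043). At the other Vκ sites DEL was higher in 1 of 9, and in 4 of 9 with distinct junctions (-0.64 points, exact sign-flip p = 0.70). Igkv10-95 carried the difference in the window. Its signal end junctions were 13.7% hybrid under DMSO, with a range of 9.64% to 21.3%, against 0.336% at Igkv10-94, the near-identical INV segment. Without Igkv10-95 the DEL sites were higher in 2 of 9 libraries (mean difference -0.72 points, exact sign-flip p = 0.14). A hybrid read of one of these 2 segments placed at the other would be counted under the other orientation, and the part of such reads was not tested.

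**Figure D3:**
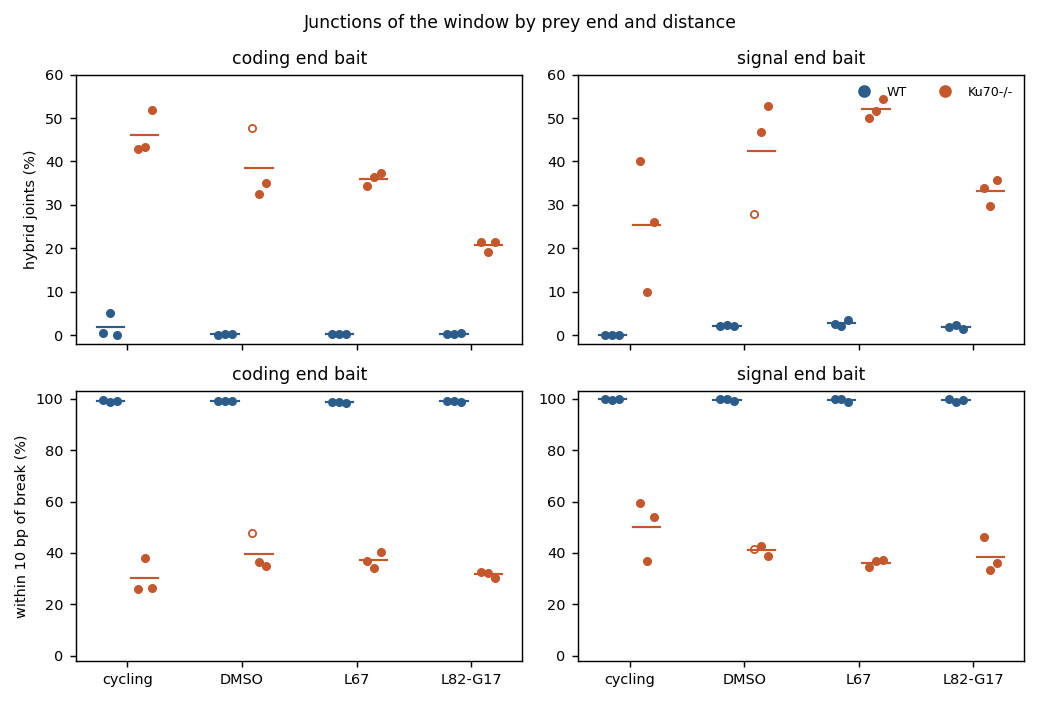
Hybrid joints (upper row, % of the window's assigned junctions) and junctions within 10 bp of the break (lower row, % of those within 100 bp) by treatment (x axis), coding end bait left, signal end bait right. Points are libraries, lines means of 3, open circles Ku70-/- library 1. Counted by junctions, WT libraries lie near 0% and near 100%, and arrested Ku70-/- libraries at 19.1% to 54.5% hybrids and 30.4% to 47.7% close joints. With distinct junctions, not drawn, the arrested WT signal end libraries hold 13.3% to 23.8% hybrids.

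Joints in WT cells lay close to the cut and those in Ku70-/- cells did not. Of the window's junctions within 100 bp of a break, 99.1% ± 0.13 (SD, n = 3) from the coding end and 99.7% ± 0.30 from the signal end lay within 10 bp in arrested DMSO WT cells. In Ku70-/- cells the coding end libraries had 47.7%, 36.4% and 35.0%, and the signal end libraries 41.5%, 42.6% and 38.9%, with no overlap between genotypes (exact permutation p = 0.1). With distinct junctions WT libraries had 88.1% to 89.4% and 95.2% to 98.4%, and Ku70-/- libraries 31.8% to 43.9% and 34.4% to 48.8%. Median trimming was 3 bp in each WT coding end library and 0 bp in each WT signal end library. It was 13 to 15 bp and 12 to 13 bp in Ku70-/- libraries. The sites were placed at pileups of arrested WT signal end junctions, which favoured close joints in those libraries.

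Fewer of the window's joints than of the rest of the locus lay close to the cut in Ku70-/- cells. Over the 9 arrested libraries 36.2% ± 5.2 (SD) of its coding end junctions lay within 10 bp, against 43.6% ± 4.4 at the other Vκ sites, lower in 9 of 9 (exact sign-flip p = 0.0039). With the signal end bait it was 38.5% ± 4.2 against 48.5% ± 5.1, lower in 8 of 9 (p = 0.0078 by the same exact test). Without library 1 the differences were -7.73 and -9.15 points. With distinct junctions they shrank to -2.50 (lower in 8 of 9, exact p = 0.012) and -4.42 points (lower in 9 of 9). Median trimming in DMSO coding end libraries 2 and 3 was 14 and 15 bp in the window against 11 and 12 bp at the other sites, and in distinct junctions 15 bp in both. In WT cells the coding end bait gave 99% ± 0.26 against 98.0% ± 0.46, higher in 9 of 9, and the difference of 1.00 points was 11.2 with distinct junctions. Among the sites with 100 or more WT coding end junctions, Igkv4-86 stood lowest, with 92.7% within 10 bp, and the means of the other sites ran from 98.6% to 100%. In the 2 Ku70-/- libraries other than library 1 Igkv10-94, Igkv12-89, Igkv1-88 and Igkv10-95 had 28.9% to 29.7% of their coding end joints within 10 bp. Unannotated site 3 had 50.3% and Igkv4-86 46.0%. Sites thus differed among themselves, and the same sites recur in each library. The sign-flip tests of close joints measure the spread between libraries and not between sites.

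**Figure D4:**
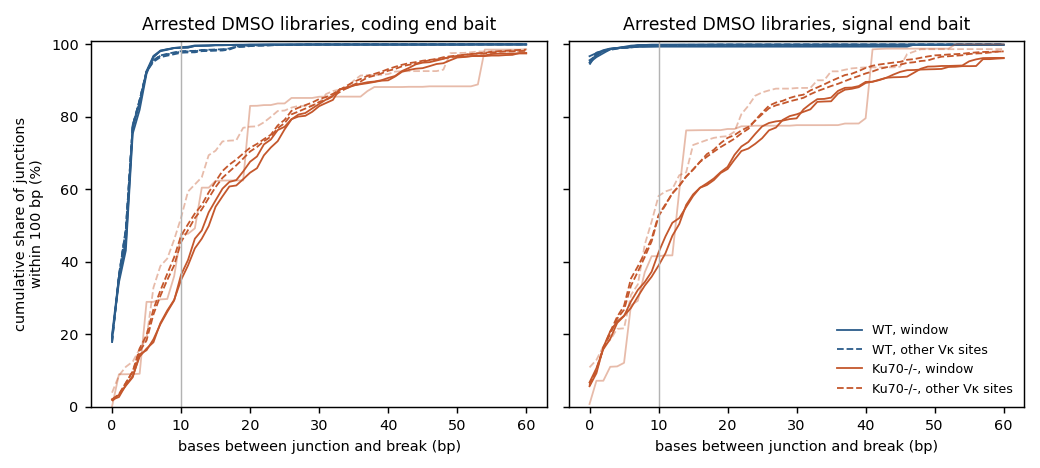
Cumulative share of junctions (y axis, % of those within 100 bp) against the distance from the break (x axis, bp), arrested DMSO libraries, coding end bait left and signal end bait right. Each line is 1 library, solid for the window and dashed for the other Vκ sites, with Ku70-/- library 1 pale, and the grey line marks 10 bp. WT lines reach over 98% by 10 bp from either bait for the window, and the solid Ku70-/- lines run below the dashed ones there.

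The joints themselves are shown for Igkv1-88, the site with the most reads, with Vκ bases in lower case and Jκ1 bases in capitals, 5′ to 3′ and starting inside the Vκ side. The first is its leading WT coding joint under DMSO, the second its leading WT signal joint, the third the leading coding joint of the Ku70-/- libraries 2 and 3, and the fourth a hybrid from them in which a Vκ coding end met the Jκ1 signal side. Bases common to both sides are written once, in capitals.
Igkv1-88 coding joint, WT: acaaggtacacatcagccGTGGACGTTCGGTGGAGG
Igkv1-88 signal joint, WT: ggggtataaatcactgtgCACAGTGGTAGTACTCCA
Igkv1-88 coding joint, Ku70-/-: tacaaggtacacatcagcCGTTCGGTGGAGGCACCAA
Igkv1-88 hybrid joint, Ku70-/-: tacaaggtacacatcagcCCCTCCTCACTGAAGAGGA

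The WT coding joint removed 3 Vκ bases and none of Jκ1 and made up 25.8% to 26.7% of the Igkv1-88 junctions of the 3 libraries. The same cut, 3 bases off Vκ, none off Jκ1 and a direct join, was the leading coding joint at 9 of the 13 window sites with 150 or more WT junctions, at 10.6% to 26.3%. At Igkv19-93 the leading joint shared 1 base with Jκ1, removed 3 Vκ bases and made up 19.4% of junctions. Igkv4-86, Igkv4-92 and unannotated site 1 had other leading joints. The exact signal joint, heptamer to heptamer, made up 95.9% to 98.5% of WT signal end junctions at Igkv1-88. It was 2.95% and 3.42% in Ku70-/- libraries 2 and 3. The Ku70-/- coding joint removed 3 Vκ bases and 5 of Jκ1, shared 1 base, and made up 1.44% to 1.62% there. The hybrid removed 3 Vκ bases and 37 of the Jκ1 signal side and made up 0.747% and 5.80%.

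By class, arrested DMSO WT coding joints of the window were 66.8% ± 0.44 (SD, n = 3) direct, 18.3% ± 0.66 with 1 bp of microhomology, 0.590% ± 0.14 with longer microhomology and 14.3% ± 0.14 with inserted bases, among joints with at most 20 bp of overlap or insertion. In Ku70-/- cells the classes were 49.9% ± 8.5, 29.7% ± 4.8, 18.3% ± 4.1 and 2.21% ± 0.46. Libraries 2 and 3 had 54.1% and 55.4% direct, 28% and 25.9% with 1 bp, 15.8% and 16.0% with longer microhomology and 2.02% and 2.73% with insertions. From the signal end WT joints were 96.5% ± 0.46 direct, and Ku70-/- joints 58.7% ± 1.7 direct with 20.0% ± 3.4 holding over 1 bp of microhomology. There libraries 2 and 3 had 58.9% and 56.9% direct joints and 17.8% and 18.2% with longer microhomology. The genotypes did not overlap in any class except insertions with the signal end bait (exact permutation p = 0.1, the smallest possible). Counted as distinct junctions, direct joints turned on average from lower to higher in Ku70-/- cells, by 12 points from the coding end and 8.75 from the signal end, or 16.3 and 15 without library 1. From the signal end library 1 itself had 31.25%, below the WT range of 33.3% to 36.7%. The other classes kept their direction at other levels. WT coding joints then held 51.6% to 52.9% insertions and 2.78% to 3.54% longer microhomology, and WT signal joints 45% to 49.2% insertions. Ku70-/- libraries 2 and 3 held 8.57% and 7.33% insertions from the coding end and 11.5% and 10.3% from the signal end, while library 1 had 29.9% and 45%.

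Within WT cells the window differed from the other Vκ sites in its coding joints. Joint classes vary between sites, as given below, and the same sites recur in all 9 libraries. The sign-flip tests here measure the spread between libraries and not between sites. Joints with 1 bp of microhomology were 18.9% ± 0.71 (SD over 9 arrested libraries) of the window and 12.2% ± 0.33 of the rest, higher in 9 of 9 libraries (exact sign-flip p = 0.0039, also with distinct junctions). Longer microhomology made up 0.796% ± 0.20 against 2.60% ± 0.34, lower in 9 of 9, but with distinct junctions p was 0.27. Insertions were lower in the window, with a difference of -0.70 points in 8 of 9 libraries (exact p = 0.0078) and of -11.8 points in 9 of 9 with distinct junctions (exact p = 0.0039). Direct joints turned with the counting, from 66.6% ± 0.68 against 70.9% ± 0.81 (lower in 9 of 9) to 8.77 points higher in distinct junctions (higher in 9 of 9, exact p = 0.0039 both times). From the signal end the 1 bp class turned likewise, from -1.19 to 2.57 points, in 9 of 9 libraries each time. In Ku70-/- cells the classes depended on counting and on library 1. By junctions the 1 bp class of coding joints had 28.4% ± 2.9 against 28.8% ± 4.1 (higher in 4 of 9, p = 0.66 by exact sign-flip test). Without library 1 these were 27.6% ± 1.6 against 27.4% ± 0.73 (higher in 4 of 8, exact p = 0.79). With distinct junctions the window was 1.19 points higher without library 1 (exact p = 0.023) and 0.86 with it (exact p = 0.105). From the signal end the 1 bp class was 1.54 points higher in the window with distinct junctions (higher in 7 of 9, exact p = 0.016; by junctions p = 0.52). By junctions the other coding end classes differed from the rest without library 1, longer microhomology by -1.85 points (lower in 7 of 8, exact p = 0.016), insertions by -0.55 (lower in 7 of 8, exact p = 0.016) and direct joints by 2.24 (higher in 6 of 8, exact p = 0.031). With library 1 none of these 3 did by junctions (exact p = 0.90, 0.14 and 0.50). With distinct junctions and library 1, insertions differed by -5.02 and direct joints by 4.01 points, each the same way in 9 of 9 libraries (exact p = 0.0039), and longer microhomology turned to 0.15 (exact p = 0.70), or 0.34 without library 1 (exact p = 0.37).

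The sites differed among themselves. Over the 12 sites other than Igkv4-92 and Igkv4-91, joints with 1 bp of microhomology ran from 1.03% at Igkv4-90 to 41.7% at unannotated site 1, with 27.9% at Igkv19-93 and 20.7% at Igkv1-88. Direct joints were 27.9% at unannotated site 1 and 82.8% at Igkv4-90. Insertions were 10.1% at Igkv19-93 and 24.9% at Igkv4-86, where 30.1% of the Vκ ends were also untrimmed, against 8.05% at Igkv19-93. Igkv10-95 and Igkv10-94, with the same 20 bases beside the heptamer, gave near values, 73.5% and 74.6% direct, 8.5% and 12% with 1 bp and 17.4% and 13.3% with insertions.

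**Figure D5:**
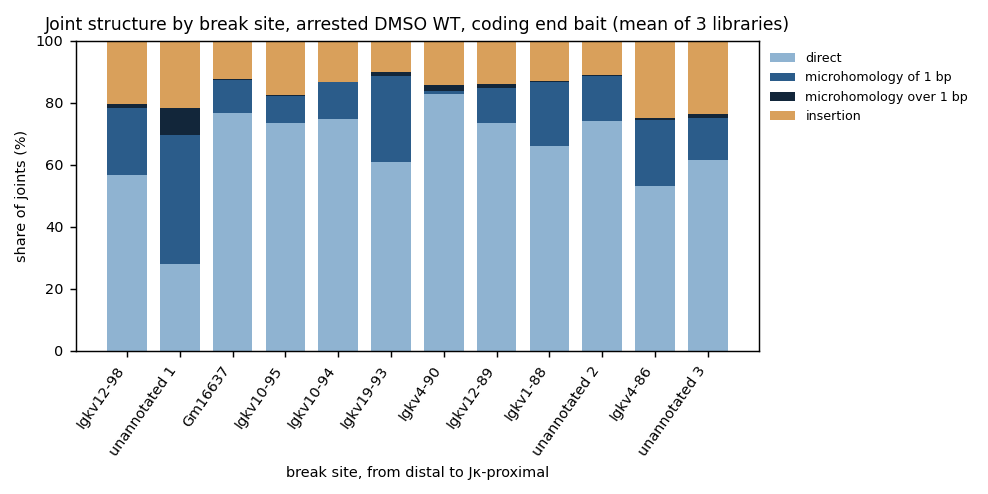
Joint structure by break site (x axis, from distal to Jκ-proximal) in arrested DMSO WT cells with the coding end bait, as % of the site's joints (y axis, stacked bars from 0, mean of 3 libraries). Light blue is direct, mid blue microhomology of 1 bp, dark longer microhomology and orange insertion. Unannotated site 1 has the smallest direct part and Igkv4-90 the largest among the 12 sites drawn.

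Not every pileup had an RSS that pointed to it. Of 31 pileups in the window 17 had no CAC at the break on the strand of their junctions, and each had 30 to 1700 junctions in the 9 arrested WT signal end libraries together. In 15 of these 17 a CAC facing the other way stood within 4 bases before and 6 after the position, which 12.4% of all positions of the window would show, and in 12 of 17 it stood within 0 to 2 bases, against 3.78%. These counts were made after the pileups were seen. Of the 17, 4 had junctions in 1 library only, and others had most of theirs in 1, up to 97.4% at 68582045. The largest, at position 68876647, had junctions in all 9 libraries and lay 3615 bp from unannotated site 3. Those at 68521139, 68582045 and 68654591 lay 89 to 91 bp inside Igkv12-98, Gm16637 and Igkv10-94.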

How the data were processed

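HTGTS-JoinT-seq amplifies genomic DNA from a bait primer, here at Jκ1, and sequences what it was joined to. The deposited files list junctions, 1 per line, with position, strand and sequence, and hold other values than a measured unit. By the methods of the study, the authors cut each library to 500000 read pairs before alignment to mm9. The submitters' processing notes name Bowtie2, whose version is not given in the sources used here. The lists hold many repeats of the same junction, so a joint amplified often is counted often. Distinct junctions share prey position, strand, bait end and gap, which also merges exact joints made in separate cells.

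Break sites were positions with at least 30 junctions in the arrested WT signal end libraries, none higher within 50 bp, and CAC in the mm9 reference. Junctions within 200 bp were assigned to the nearest site, and the prey strand told coding from signal ends. Overlap of both sides was microhomology. Shares are of the Vκ region's junctions and show use relative to other Vκ sites, not efficiency. Site use was tested with limma 3.58.1 on log2 of junctions per 1000 plus the value of 1 junction, over sites with a mean of 50 or more junctions, with Benjamini-Hochberg adjustment within each of 16 comparisons. On simulated data with 30 sites changed by log2 1.5, it recovered 96.7% in the Ku70-/- against WT coding end comparison, with 3 false calls. With the signal end bait it recovered 86.7%, with 1 false call. In the real signal end comparison Igkv10-94 was not called at log2 -3.99 (SE 2.37). Such recovery therefore does not hold for sites at which library 1 stood apart. Window measures were tested by exact two-sided permutation, and the window against the rest by exact sign flips within libraries. Python 3.11.15, pandas 2.3.3, numpy 2.4.6, matplotlib 3.10.9 and R 4.3.3 were used. The window, sites and tests were chosen with earlier results of these data known. Every site was named, and the 4 most used per bait and, per comparison, up to 3 rises and 3 falls past adjusted p 0.05 without overlap were given with values. No counting intervals were computed, since repeated junctions need not be independent molecules.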

Additional observations from a re-analysis of the deposited data

Results flagged for a closer look

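The result here is a pileup in the window at chr6 position 68876647, with no RSS heptamer facing it and outside the break site comparisons. It was picked for its junctions in the arrested WT signal end libraries, so that its level there is higher than elsewhere is a description, with no test. The 9 libraries held 0.0333% to 0.125% of the Vκ region's junctions, while all 3 cycling WT signal end libraries held none, where 3 counts would be at most 0.0155%. Under DMSO it took 0.0610% ± 0.030 (SD, n = 3). In the 9 arrested Ku70-/- signal end libraries the median was 0% and the highest 0.0475%, in an L82-G17 library above the lowest WT library. A sequence CACACTA faces away from the position. Groups of 3 libraries were too small for a test of single outlying libraries.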

How the results depend on the processing

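Groups had 3 libraries, so an exact permutation test of 3 against 3 could not pass the threshold, and depth limited the cycling Ku70-/- libraries most. No paired analysis was possible because the labels give no replicate numbers, and those used here follow the order of deposit. Of 580 alternative values that answer a comparison, 510 kept direction and side of the threshold, or their count of sites. Another 32 turned direction, and 34 counts of sites moved by over 1.5 times or from or to 0. The threshold was newly passed by 3 and no longer passed by 1. Permutation tests of 3 or 2 against 3 libraries could not pass it. The 510 thus hold many values whose side of the threshold was fixed in advance. Of joint classes set against the other Vκ sites, the tally holds only microhomology in WT coding joints. Where values changed, the cause was not tested, except that counting distinct junctions merges repeated exact joints by construction. As a share of all junctions, the Ku70-/- minus WT difference of the window with the coding end bait turned to -1.12 points and the L82-G17 effect in Ku70-/- cells to 0.28. Counted as distinct junctions, the window's share turned to -0.52 (coding end, arrest in WT), -0.30 and -0.26 (arrest in Ku70-/-, coding and signal end), -0.17 (L67 in Ku70-/-, coding end) and 1.03 points (L67 in WT, signal end). The share at DEL sites turned to -5.28 (Ku70-/- minus WT, coding end; -0.11 with assignment within 100 bp) and -1.43 (L82-G17 in WT, signal end). Direct joints turned to 12 and 8.75 points (Ku70-/- minus WT), and 1 bp microhomology to 1.00 point (signal minus coding end, WT). Against the other Vκ sites, distinct junctions gave hybrid differences of 0.39 (WT, coding end), 2.92 and -3.83 points (Ku70-/-, coding and signal end) that passed the test, a close-joint difference of 1.10 (WT, signal end), and -0.25 for longer microhomology (WT, coding end), no longer past it. Within 5 bp, the L67 and L82-G17 effects on close Ku70-/- signal end joints turned to 1.07 and 4.89 points. Among values outside the tally, WT direct joints against the other Vκ sites turned to 8.77 points (coding end, distinct junctions). The 1 bp microhomology of WT signal joints likewise turned to 2.57 points.

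Window sites called with distinct junctions numbered 6 and 6 (Ku70-/- minus WT, coding and signal end; 38.4% and 35.4% of all sites), 3 and 1 (arrest, WT and Ku70-/-, coding end; 22.7% and 6.45%) and 0 for L67 and L82-G17 in WT cells with the coding end bait (0.00% and 2.61%) and for L82-G17 with the signal end bait (0.885%). Unannotated site 1 then had log2 -0.079 for arrest with the signal end bait. With 1 fit over all 24 libraries of a bait the counts were 1 and 2 (Ku70-/- minus WT; 14.3% and 17.7% of all sites), 6 and 2 (arrest in Ku70-/-, coding and signal end; 45.2% and 31.9%), 3 (arrest in WT, signal end; 44.5%) and 0 (L67, and L82-G17 with either bait, in WT; 0.00%). A filter of 10 junctions gave 1 (Ku70-/- minus WT, coding end; 9.02%), and one of 200 gave 3 (L67 in WT, coding end; 16.2%).

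Without Ku70-/- DMSO library 1 of both baits, the bait difference of the window's share was -0.086 points. Leaving out 1 library at a time, the window's share ranged from -0.67 to 4.04 points (arrest in Ku70-/-, signal end, turned without cycling library 3) and from -2.08 to 0.093 (L67, Ku70-/-, signal end). The share at DEL sites ranged from -2.08 to 4.12 (Ku70-/- minus WT, coding end) and from -0.38 to 0.91 (L67 in WT, signal end). In Ku70-/- cells L67 changed coding end hybrids by -5.29 to 2.22 points and close joints by -4.80 to 1.57, and L82-G17 changed close signal end joints by -6.40 to 0.070. Signal end insertions, Ku70-/- minus WT, ranged from -0.54 to 0.33. The Ku70-/- hybrid difference against the other Vκ sites with the coding end bait was -0.44 without library 1 (chosen after seeing the data). Window sites called ranged from 0 to 6 and 0 to 5 (Ku70-/- minus WT, coding and signal end, while the share of all sites called ran from 4.50% to 40.7% and 6.25% to 53.6%), 0 to 5 (arrest in WT, coding end; 4.55% to 40.2% of all sites), 0 to 1 (L67 in WT, coding end, 0.00% to 3.45%; L82-G17 in Ku70-/-, coding end, 0.00% to 9.28%; arrest in Ku70-/-, signal end, 0.00% to 13.8%), 1 to 4 (L82-G17 in WT, coding end; 18.6% to 33.0%) and 0 to 0 (L82-G17 in WT, signal end; 0.00% to 0.885%).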
